A study of Mus musculus with 8 samples.

Results

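The genes described here are 10 surface and identity markers of fibroblasts: Pdgfra, Pdgfrb, Eng, Cd34, Thy1, Fap, S100a4, Vim, Twist1 and Twist2. They were taken by name from the 17097 genes measured, and all 10 were found, on 13 of the 45141 probe sets of the array. Eng had 2 probe sets and Vim had 3, and the brightest represented the gene. The arrays compared came from 2 groups of female mice, which began a normal diet (ND) or a high fat diet (HFD) at 2 months of age and ate it for 6 months. The labels name no strain, allele or other agent, and the mice were all killed on one day. Each array holds RNA of 10000 cells from collagenase-digested dermis without its subdermis, amplified over 20 cycles. The cells had been sorted for Pdgfra and CD34 protein and against CD45, CD117, CD24, CD31 and EpCam, so the diets were compared within cells already chosen for both markers. Each diet had 4 mice by the design text, and ND 4 is excluded in the labels by quality control, so ND 1 to 3 were set against HFD 1 to 4. With 3 and 4 arrays a diet, precision is set by that number.

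Fibroblasts are the cells that build and remodel the collagenous matrix of the dermis, and no single gene defines them. Pdgfra and Pdgfrb are receptor tyrosine kinases that pair when PDGF binds and pass the signal to adaptors, phosphatases and kinases inside the cell. Eng (endoglin, CD105) is a co-receptor for BMP and TGF-beta ligands, Cd34 a sialomucin, and Thy1 (CD90) a lipid-anchored glycoprotein that integrins bind. Fap is a membrane protease that cuts after proline, S100a4 (also called Fsp1) a calcium-binding protein of motile cells, and Vim (vimentin) the intermediate filament of mesenchymal cells. Twist1 and Twist2 (also called Dermo1) are basic helix-loop-helix transcription factors of mesenchyme. Several of these genes are also used to mark other cells: Cd34 and Eng endothelium, Pdgfrb pericytes, Thy1 T cells, and S100a4 leukocytes.

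Of the 10 markers S100a4 was higher in HFD fibroblasts, by 0.49 log2 or 1.40-fold, and the other 9 did not pass the test. The array signals of Vim and Cd34 differed between diets by 0.01 log2 each, with intervals within 0.15 log2 of 0. Pdgfra lay 0.34 log2 higher in HFD and Eng 0.23 log2 lower, without passing. Fap had the widest interval, from -0.42 to 0.62. Differences are HFD minus ND on the log2 scale of the deposited values, tested in limma with Benjamini-Hochberg adjustment over all 17097 genes at 0.05. In that test 5.35% of all genes were called, 2.62% as higher and 2.73% as lower, so 1 of 10 markers is near the background share. The median difference of the 10 markers was 0.09 log2 against 0.02 for all genes, with 8 of 10 markers and 9615 of 17097 genes positive. Because the arrays hold bulk RNA, fewer cells of a type and less RNA per cell cannot be told apart.

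**Figure D1:**
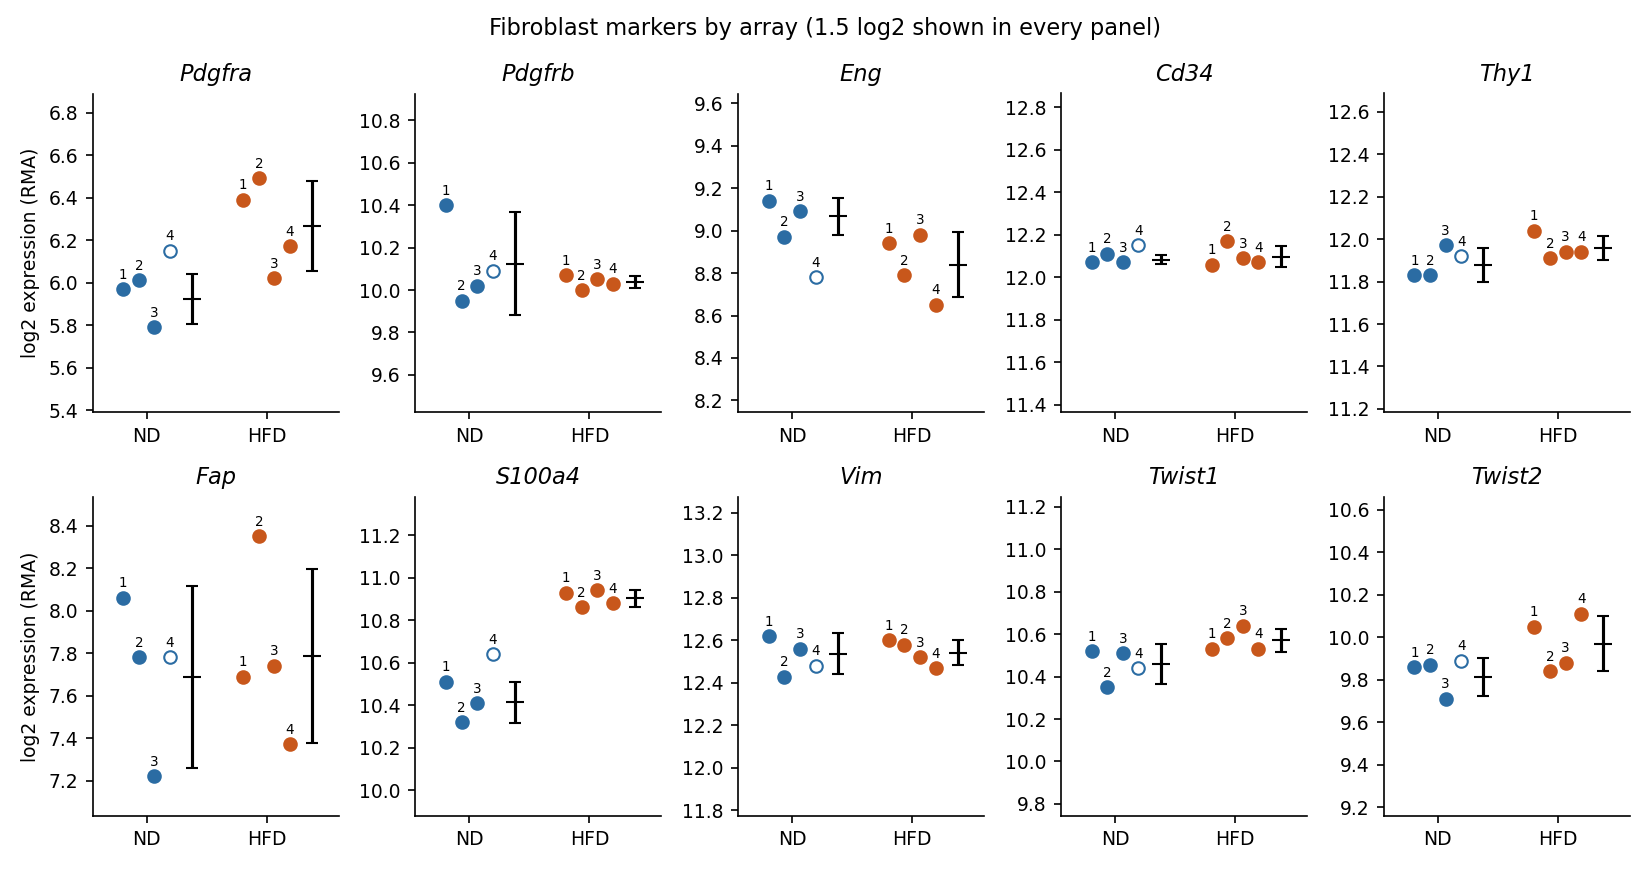
Log2 expression (RMA, vertical axis) of the 10 markers in each array, numbered by specimen, with ND in blue and HFD in orange. The open circle is ND 4, which was left out of the comparison, and the bars give the mean and SD of ND 1 to 3 (n = 3) and HFD 1 to 4 (n = 4). In S100a4 the HFD arrays lie between 10.86 and 10.94, above every ND array.

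S100a4 stood at 10.51, 10.32 and 10.41 in ND 1 to 3 and at 10.93, 10.86, 10.94 and 10.88 in HFD 1 to 4. Every HFD array was above every ND array, and the excluded ND 4, at 10.64, was also below all HFD arrays. Over the same 7 arrays 17.9% of all genes did not overlap, and 9.95% were higher in HFD without overlap. The means were 10.41 ± 0.10 (SD, n = 3) and 10.90 ± 0.04 (SD, n = 4), a difference of 0.49 (95% interval 0.33 to 0.65, SE 0.07, limma adjusted p = 0.0224). An exact two-sided permutation test over the 35 splits of 7 arrays gave p = 0.0286, the smallest it can give. This p is not adjusted over the 10 markers, and Twist1 reached it too. The difference was 0.44 to 0.54 with any 1 array left out, but the limma call was lost without ND 3 (adjusted p = 0.0678), HFD 3 (adjusted p = 0.0631) or HFD 4 (adjusted p = 0.0663). With ND 4 included it was 0.43 (adjusted p = 0.128).

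**Figure D2:**
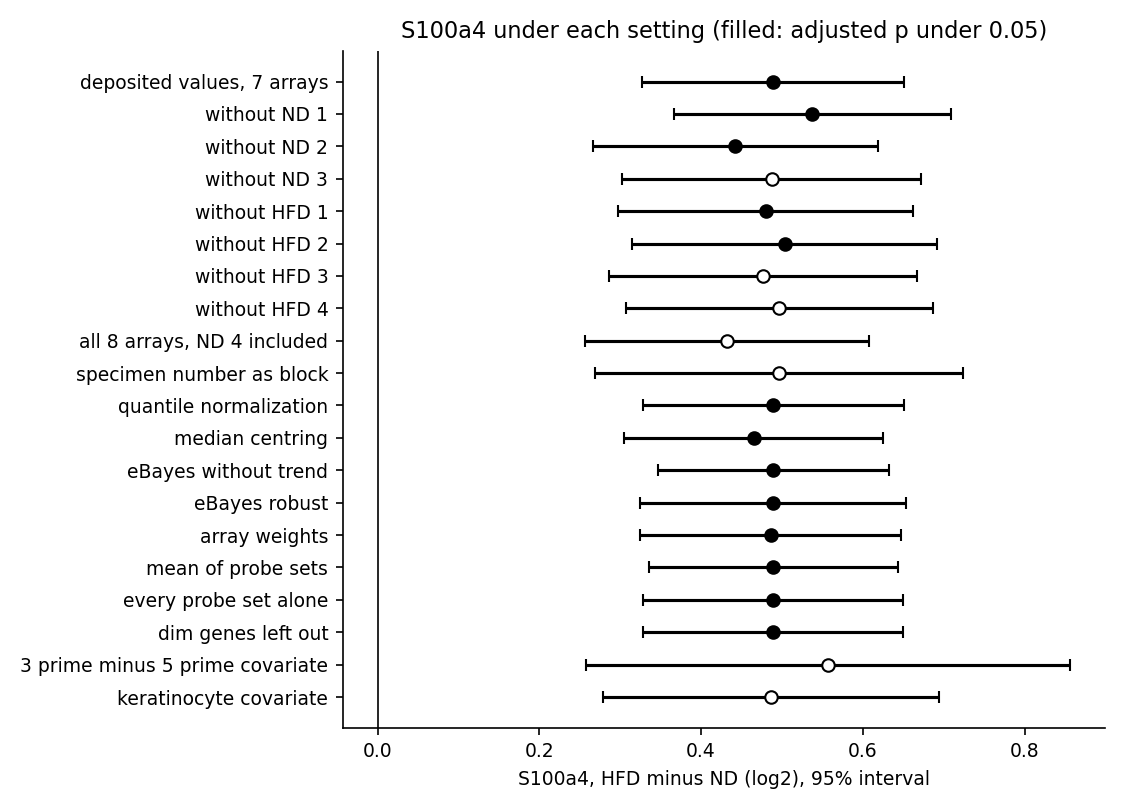
The S100a4 difference, HFD minus ND in log2 (horizontal axis), with its 95% interval in limma, for the deposited values of 7 arrays and for each alternative. Filled points have an adjusted p under 0.05. The difference lies between 0.43 and 0.56 in all 19 alternatives shown, and its interval is above 0 in each.

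The 3′ minus 5′ signal averaged over the Gapdh and Actb controls, a measure of RNA quality, was -0.34 to -0.18 in ND and -0.44 to -0.38 in HFD, without overlap. With that measure as a covariate the S100a4 difference was 0.56 (SE 0.13, limma adjusted p = 0.999, unadjusted p = 0.00218). Keratinocyte marker genes, with 13 of 14 measured, had a mean of 6.47 to 6.99 in ND and 6.55 to 7.91 in HFD, where all 13 had a positive difference and 0 passed (limma). With that mean as a covariate the S100a4 difference was 0.49 (adjusted p = 0.0832). Leukocyte markers overlapped between diets, with means of 6.36 to 6.47 in ND and 6.36 to 6.52 in HFD. Tyrobp, an adaptor of myeloid and natural killer receptors, was the 1 of 12 that passed, rising from 5.60 to 5.92. Its probe set was dim, at a mean of 5.78 against a median gene of 6.77. H2-Ab1, a class II antigen-presentation gene, differed by 0.40 without passing (limma adjusted p = 0.195). Csf1r and Cd74 differed by -0.21 and -0.13, also without passing. Of the 12 leukocyte markers 5 were positive, with a median difference of -0.02. Ptprc, which encodes CD45, was at 4.08 and 4.03, below the median of the nonspecific controls, where its probe set shows neither presence nor change. Because the 3′ minus 5′ measure did not overlap between diets, its covariate fit cannot tell RNA quality and diet apart. In that fit 0 of 17097 genes were called. The part of these measures in the S100a4 result was not tested beyond the keratinocyte fit.

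The start region of S100a4 is shown because it is the marker that was called, beside that of Vim, whose signal differed by 0.01. Both are RefSeq windows of GRCm38.p6, from 250 bases before the annotated start to 50 bases from it, and such windows were found for 7 of the 10 markers. S100a4 is at chr3:90603520-90603819 and Vim at chr2:13574061-13574360, both on the plus strand, written 5′ to 3′ with TATAAA in capitals.
S100a4: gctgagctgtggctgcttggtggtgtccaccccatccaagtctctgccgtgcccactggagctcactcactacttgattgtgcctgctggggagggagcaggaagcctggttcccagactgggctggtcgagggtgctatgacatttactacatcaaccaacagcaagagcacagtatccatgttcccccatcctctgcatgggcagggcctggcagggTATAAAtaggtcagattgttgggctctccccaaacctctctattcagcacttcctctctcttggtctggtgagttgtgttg
Vim: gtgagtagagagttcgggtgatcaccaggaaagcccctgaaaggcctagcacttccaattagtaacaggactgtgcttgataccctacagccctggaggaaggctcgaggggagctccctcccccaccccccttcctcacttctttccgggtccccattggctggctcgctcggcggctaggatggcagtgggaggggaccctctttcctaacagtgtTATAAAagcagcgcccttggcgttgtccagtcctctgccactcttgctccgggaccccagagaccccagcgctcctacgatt
The first T of TATAAA lies 31 bases before the start in S100a4 and 32 bases before it in Vim. Searched on both strands, TATAAA was in 3 of the 7 windows, Twist1 being the third, and in 13.6% of the 32851 windows of the same length. The E-box letters CANNTG, the kind of site that Twist proteins bind, were in the windows of Pdgfra and Eng and in 72.3% of all. The GC box GGGCGG was in those of Twist1 and Twist2 and in 35.7% of all, and the AP-1 letters TGANTCA in none of the 7 and in 7.81% of all. S100a4 and Vim both hold a TATAAA at nearly the same place, and their signals differed between diets by 0.49 and 0.01. A link between these letters and the differences was not tested.

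S100a4 belongs to a family of small calcium-binding proteins, many of whose genes sit side by side on chromosome 3. Of 13 other S100 genes measured of 15 listed, S100a16 rose, 0 fell and 12 did not pass, with a median difference of 0.09. S100a16 stood at 9.79, 9.84 and 9.74 in ND 1 to 3 and at 10.37, 10.27, 10.21 and 10.16 in HFD, a difference of 0.46 (SE 0.08, adjusted p = 0.0224). Every HFD array was above every ND array on this probe set. On the dimmer of its 2 probe sets the difference was 0.28, and the arrays overlapped. S100a6 (calcyclin) differed by 0.38 (SE 0.10, adjusted p = 0.0533) and also had every HFD array, from 10.13 to 10.36, above every ND array, from 9.75 to 10.06.

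In chromosome order, S100a1, S100a13, S100a14, S100a16 and S100a3 precede S100a4, and S100a5, S100a6, S100a8 and S100a9 follow it, counting the measured genes. This neighbourhood was looked up after the values were seen. S100a13 differed by 0.32 (limma adjusted p = 0.132). S100a5, on a dim probe set at a mean of 5.42, differed by 0.33 (adjusted p = 0.296), but by 0.14 without HFD 2, a setting chosen after seeing the data. HFD 2 stood at 6.13 and the other HFD arrays at 5.34 to 5.42. S100a3 and S100a8, the latter a neutrophil gene, differed by -0.02 and 0.02. S100a3 and S100a8 were dim, at means of 4.73 and 4.83 against a median of 4.32 in the nonspecific controls, so a difference in them may not be visible. S100a10 and S100a11, listed S100 genes outside the plotted stretch, differed by 0.16 and -0.16 without passing.

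**Figure D3:**
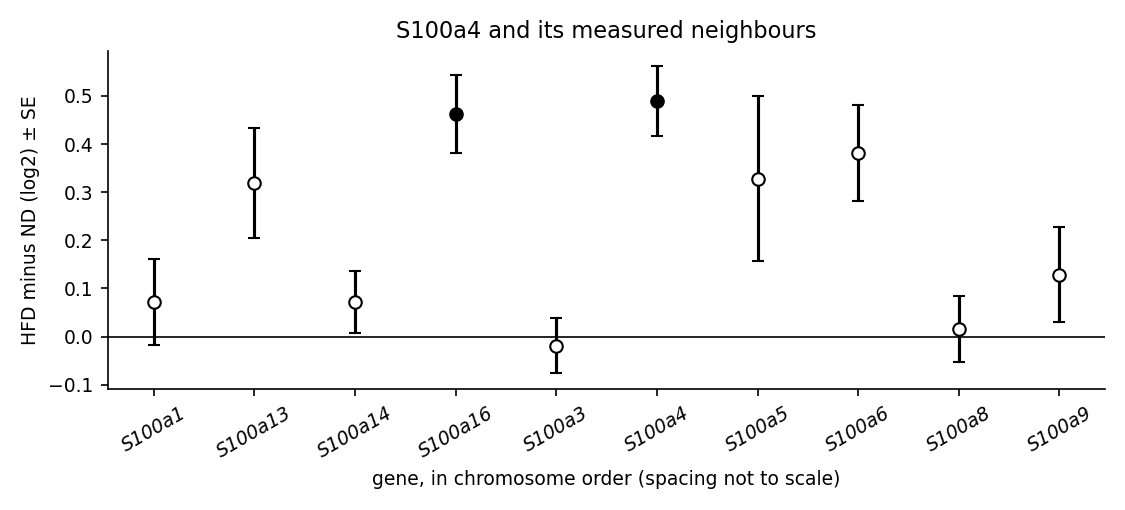
Difference between diets, HFD minus ND in log2 with its SE in limma (vertical axis), for S100a4 and the 9 measured genes near it, in chromosome order with spacing not to scale. Filled points, S100a16 and S100a4, passed an adjusted p of 0.05. S100a3, between them and on a dim probe set, lies at -0.02.

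Among the receptors, Pdgfra was the marker closest to S100a4 in size of difference. It stood at 5.97, 6.01 and 5.79 in ND 1 to 3 and at 6.39, 6.49, 6.02 and 6.17 in HFD 1 to 4. The HFD arrays lay above ND 1 to 3, HFD 3 by only 0.01, and ND 4, at 6.15, fell within the HFD range. The means were 5.92 ± 0.12 (SD, n = 3) and 6.27 ± 0.21 (SD, n = 4), and the difference of 0.34 (95% interval 0.09 to 0.60) did not pass (limma adjusted p = 0.103, unadjusted p = 0.0122, exact two-sided permutation p = 0.0571). The probe set was dim: 5 of the 23 nonspecific control probe sets of the array were brighter in their mean. The cells were sorted for Pdgfra protein, so this dim signal is a limit on reading the Pdgfra transcript from this array, and no second probe set names Pdgfra alone. With the 3′ minus 5′ covariate the Pdgfra difference was 0.07 (SE 0.19, 95% interval -0.35 to 0.49), in a fit that cannot tell that measure and diet apart.

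Pdgfrb, the partner receptor that also marks pericytes, was at 10.40, 9.95 and 10.02 in ND 1 to 3 and at 10.07, 10, 10.05 and 10.03 in HFD. ND 1 stood above all others, and the remaining arrays spanned 9.95 to 10.07. The difference was -0.09 (95% interval -0.32 to 0.15, adjusted p = 0.711), and without ND 1 it was 0.05. The SD was 0.24 in ND and 0.03 in HFD. Of 8 measured pericyte and smooth muscle markers 0 passed (limma, adjusted p under 0.05), 7 of 8 were positive, and every HFD array had a higher mean (6.449 to 6.559) than every ND array (6.245 to 6.445). Their part in the Pdgfrb values was not tested.

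PDGF ligands and the signalling proteins that dock on the receptors moved in both directions. Of 13 measured of 15 listed, 1 rose, 2 fell and 10 did not pass, with a median difference of 0.07. The phosphatase Ptpn11 (Shp2), which carries receptor signals to Ras, rose from 8.75 to 9.19, by 0.43 (SE 0.09, limma adjusted p = 0.0327), although its other, dimmer probe set differed by -0.06. The kinase Src fell by 0.28 (SE 0.07, adjusted p = 0.0452), and its other probe set differed by -0.63. The catalytic subunit Pik3ca fell by 0.41 (SE 0.10), and its 5 other probe sets were also negative, from -0.57 to -0.03. The ligand genes Pdgfb, Pdgfc and Pdgfd differed by 0.06, 0.13 and 0.07 and had dim probe sets, at means of 5.84, 4.96 and 6.62 against a median gene of 6.77.

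Eng was at 9.14, 8.97 and 9.09 in ND 1 to 3 and at 8.94, 8.79, 8.98 and 8.65 in HFD 1 to 4. The ranges overlapped by 0.01, and ND 4, at 8.78, lay among the lower HFD arrays. The difference was -0.23 (95% interval -0.45 to 0.00059, SE 0.10, limma adjusted p = 0.227, unadjusted p = 0.0505). The other Eng probe set gave 8.27, 7.82 and 8.33 in ND and 7.88, 8.00, 8.11 and 7.84 in HFD, a difference of -0.18 with the same sign and wider overlap. Both probe sets of this co-receptor were therefore lower in mean under HFD, and neither passed. On the brightest, the difference was -0.04 (SE 0.18) with the 3′ minus 5′ covariate. Of 12 endothelial markers, cells in which Eng is abundant, 0 passed (limma, adjusted p under 0.05), with means of 5.93 to 5.99 in ND and 5.93 to 6.04 in HFD.

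Of the 21 receptors, SMADs and Id targets listed around Eng, all measured, Id1 rose and 20 did not pass, with a median difference of 0.01. Id1, a target of BMP signals, stood at 7.68, 7.60 and 7.26 in ND 1 to 3 and at 8.29, 8.13, 7.99 and 8.16 in HFD, a difference of 0.63 (SE 0.12, adjusted p = 0.0264). Its HFD and ND arrays did not overlap. The type II receptor gene Bmpr2 differed by 0.31 (adjusted p = 0.0625), and the signal transducer Smad1 by 0.54 (adjusted p = 0.0702). Of the other Id genes, Id2 differed by -0.25 (adjusted p = 0.159) and Id3 by 0.09 (adjusted p = 0.559). The receptor genes Acvrl1 and Tgfbr3, the latter encoding betaglycan, a relative of endoglin, differed by -0.09 and -0.11 and Tgfbr2 by 0.04.

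**Figure D4:**
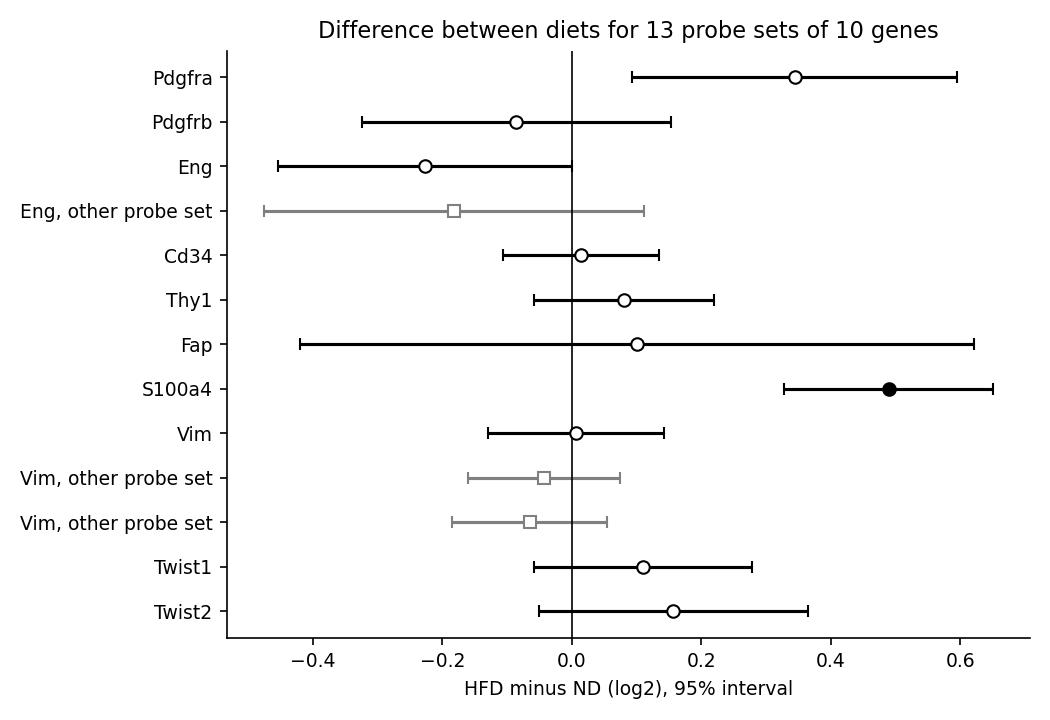
Difference between diets, HFD minus ND in log2 (horizontal axis), with its 95% interval in limma for all 13 probe sets of the 10 markers. Circles are the brightest probe set of a gene, squares the others, and the filled circle is S100a4, the 1 that passed. The Eng probe sets both lie below 0, and the interval of Fap is the widest, from -0.42 to 0.62.

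Cd34, the other protein of the sort, was the steadiest marker between mice. It stood at 12.07, 12.11 and 12.07 in ND 1 to 3 and at 12.06, 12.17, 12.09 and 12.07 in HFD, and the 7 arrays spanned 0.11 log2. Its SD within diets was 0.04, at the 5.11th percentile of all genes, and the difference of 0.01 had a 95% interval of -0.11 to 0.14 (limma adjusted p = 0.918). The cells had been chosen for CD34 protein, so Cd34 in unsorted dermis was not measured.

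Thy1 was at 11.83, 11.83 and 11.97 in ND 1 to 3 and at 12.04, 11.91, 11.94 and 11.94 in HFD. The groups overlapped through ND 3, and the difference was 0.08 (95% interval -0.06 to 0.22, adjusted p = 0.508). T cell markers had 0 of 5 past the test (limma), with means of 5.87 to 5.89 in ND and 5.85 to 5.91 in HFD, and Cd3e was at 4.82 and 4.77. Only 1 of the 5 was brighter than the median gene, so a difference in the others may not be visible. The part of T cells in the Thy1 values was not tested.

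Among 19 measured of 21 listed genes for integrins that bind Thy1 and for other stromal surface proteins, 4 rose, 0 fell and 15 did not pass, with a median difference of 0.02. Itgb3, the beta-3 chain, stood at 9.26, 9.08 and 8.71 in ND 1 to 3 and at 9.57, 9.77, 9.66 and 9.56 in HFD, a difference of 0.62 (SE 0.13, limma adjusted p = 0.03), and its other probe set differed by 0.36. Its partner Itgav differed by 0.02. Itga5 of the fibronectin receptor rose by 0.65 (SE 0.16) and Itgb1 by 0.32 (SE 0.08). The tetraspanin Cd9, which is also abundant in keratinocytes, rose by 0.42 (SE 0.10, adjusted p = 0.0457). The hyaluronan receptor Cd44 differed by 0.62, with an SD of 0.38 in each diet, and Nt5e (CD73) by 0.17, and neither passed.

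Fap varied most among the markers. It was at 8.06, 7.78 and 7.22 in ND 1 to 3 and at 7.69, 8.35, 7.74 and 7.37 in HFD, so that the highest and lowest of the 7 arrays, HFD 2 and ND 3, differed 2.19-fold. The diets overlapped almost entirely, with a difference of 0.10 (95% interval -0.42 to 0.62, adjusted p = 0.857). Its SD within diets was 0.42, at the 99.2th percentile of all genes, and its direction changed without ND 3 (-0.13) or HFD 2 (-0.09). The highest array, HFD 2, was also the highest in the keratinocyte marker mean, at 7.91. ND 1, second in Fap, was at 6.99 there, the highest of ND 1 to 3 and below HFD 3 and HFD 4. The part of those cells in Fap was not tested beyond the covariate fit, which gave a difference of -0.15. Of the 23 nonspecific control probe sets 1 was brighter than Fap in its mean.

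Of 8 genes listed from the prolyl peptidase families related to Fap, 0 passed (limma, adjusted p under 0.05), 2 were positive, and the median difference was -0.25. Prep, a cytosolic oligopeptidase, differed by -0.33 (adjusted p = 0.0701), Dpp9 by -0.28 and Dpp4 (CD26), a surface marker of some dermal fibroblasts and the closest relative of Fap, by -0.27. Prcp, a lysosomal carboxypeptidase with a dim probe set at a mean of 4.11, differed by 0.13 (adjusted p = 0.077).

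The 3 genes with the pattern most like Fap over the 7 arrays, among 8547 genes brighter than the median gene, were Snx32 (r = 0.99), Lenep (r = 0.95) and Dvl2 (r = 0.95). For S100a4 they were Tcf4 (r = 0.99), Zfp316 (r = 0.99) and Mark3 (r = 0.98). These values of r describe 7 arrays, were the highest of all genes searched, and carry no test, and the arrays share the RNA quality and cell content given above. Tcf4, a partner of Twist proteins, stood at 10.18, 10.06 and 10.13 in ND 1 to 3 and at 10.34, 10.29, 10.35 and 10.31 in HFD, so all HFD arrays were above ND 1 to 3 by a difference of 0.20 that did not pass (adjusted p = 0.132).

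Vim had 3 probe sets, all bright. The brightest stood at 12.62, 12.43 and 12.56 in ND 1 to 3 and at 12.60, 12.58, 12.52 and 12.47 in HFD, with fully overlapping groups. Its difference was 0.01 (95% interval -0.13 to 0.14, limma adjusted p = 0.971), and the other probe sets differed by -0.04 and -0.07. Among 10 measured of 11 other filament and linker genes, Plec fell and 9 did not pass, with a median difference of 0.06. Plec, the plectin that ties vimentin filaments to other structures, fell by 0.64 (SE 0.15, adjusted p = 0.0434) on its brightest probe set, while its other probe sets differed by -0.04 and 0.61, so its probe sets disagree. Lmna, a lamin of the nuclear envelope, differed by 0.32 (adjusted p = 0.0725) and the muscle filament Des by 0.49 (adjusted p = 0.168).

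Twist1 stood at 10.52, 10.35 and 10.51 in ND 1 to 3 and at 10.53, 10.58, 10.64 and 10.53 in HFD. Every HFD array was above every ND array, ND 4 at 10.44 included, but the gap to ND 1 was 0.01. The difference of 0.11 (95% interval -0.06 to 0.28) did not pass (limma adjusted p = 0.446), although the exact two-sided permutation test gave p = 0.0286, its smallest. Arrays that do not overlap were found in 3 of 10 markers, S100a4, Pdgfra and Twist1, all higher in HFD, where 17.9% of all genes did not overlap and 9.95% were higher without overlap. Across the 10 exact tests the other 7 markers gave p from 0.143 to 1.

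Twist2 was at 9.86, 9.87 and 9.71 in ND 1 to 3 and at 10.05, 9.84, 9.88 and 10.11 in HFD. HFD 1 and 4 were above every ND array, and HFD 2 and 3 lay with ND 1 and 2. The difference was 0.16 (95% interval -0.05 to 0.36, adjusted p = 0.371), and 0.004 (SE 0.16) with the 3′ minus 5′ covariate. Of 16 measured of 17 Twist partners and other mesenchymal transcription factors, Prrx2 fell, 0 rose and 15 did not pass, with a median difference of -0.05. Prrx2, a homeobox factor of mesenchyme, stood at 9.92, 9.86 and 10.21 in ND 1 to 3 and at 9.74, 9.39, 9.27 and 9.47 in HFD, a difference of -0.53 (SE 0.13, adjusted p = 0.0429), while its relative Prrx1 differed by 0.16. Snai1 differed by -0.23, Snai2 by -0.11 and Zeb2 by 0.05.

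**Figure D5:**
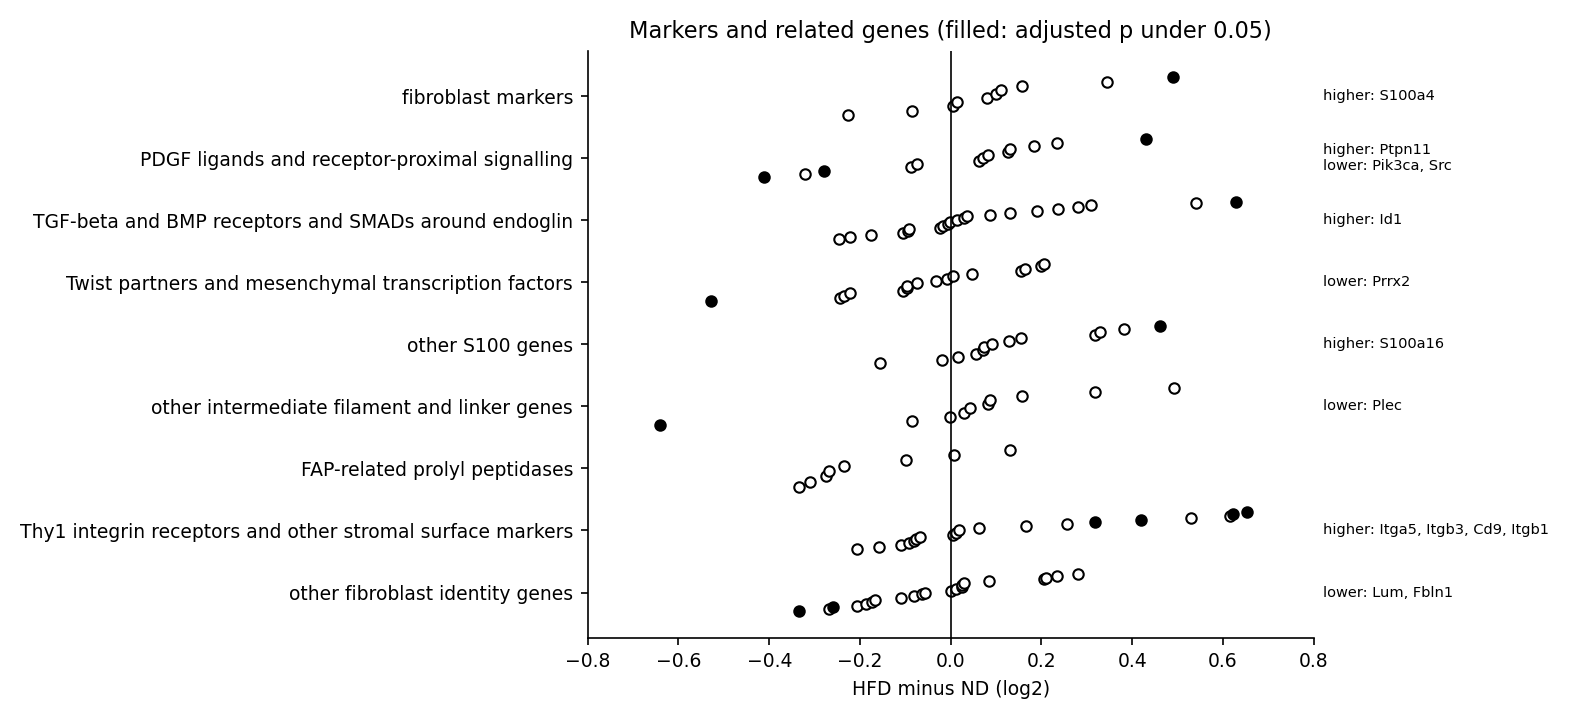
Difference between diets, HFD minus ND in log2 (horizontal axis), for the 10 markers and the measured genes of 8 related lists, 1 point per gene. Filled points passed an adjusted p of 0.05 in limma and are named at the right. S100a4 is the 1 filled marker, at 0.49, and the 4 stromal surface genes that passed were all higher.

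A further list of 21 measured fibroblast genes of 22 listed bears on the identity of the cells. Their mean lay between 11.49 and 11.59 in ND and between 11.46 and 11.56 in HFD, and 20 of 21 were brighter than the median gene. The proteoglycan Lum and the matrix protein Fbln1 fell on their brightest probe sets, 0 rose and 19 did not pass, with a median difference of -0.06. Of the dimmer probe sets of Fbln1, 1 differed by 0.01 with overlapping arrays and the other by -0.24, so its probe sets disagree. Over the 8 lists, 13 of 118 genes were called, 7 higher and 6 lower, or 11% against 5.35% of all genes, and the lists were chosen with earlier results known. Calls were more frequent among bright genes: above the median gene they numbered 808 of 8548 genes (9.45%) and 13 of 85 list genes (15.3%). All 13 kept their sign in every setting tried, but 0 of the 13 calls remained without ND 3, HFD 2, HFD 3 or HFD 4, with ND 4 included, or with either covariate. Without ND 2 the calls of Id1 and S100a16 remained, and with the mean of probe sets those of Id1, Itgb3 and Src. Without ND 1 and without HFD 1, 7 and 9 of them remained.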

How the data were processed

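Array values of 8 samples of sorted dermal fibroblasts were used. The deposited table holds log2 values, made by the authors with RMA and the affy package per the submitters' processing notes, with versions not given in the sources used here. They were used without further scaling, since array quartiles agree within 0.04, and a change in total RNA per cell would not be visible. Scanner values were not used here.

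Of the probe sets 28898 have 1 gene symbol and 551 several in the platform annotation. Symbols were updated by Entrez identifier, and the brightest probe set over the 7 arrays represented a gene. HFD was compared with ND in limma 3.58.1 under R 4.3.3 (lmFit, eBayes with trend), with adjustment over 17097 genes. The fit was also run on simulated data with noise drawn independently for each gene. Such data hold no shift shared by the genes of an array, so that run does not bear on the calls here. Intervals are limma's, at 95%, for single genes. Alternatives were other arrays, scalings, probe set rules, fits and covariates. All 10 markers are named. Each related list gives its called genes, up to 4, or the 2 with the smallest p if none is called, and any further gene named from a list was chosen with its values in view. The rule of up to 3 bright genes per marker list of other cell types was not followed. Keratinocyte, leukocyte, pericyte, endothelial and T cell lists are given by their mean, with some single genes. Mast cell, Schwann, adipocyte and skeletal muscle means overlapped between diets. Melanocyte means did not, at 6.02 to 6.04 in ND and 5.88 to 6.01 in HFD, with 0 of 6 genes passing (limma) and 4 positive. Mitf, the 1 of the 6 brighter than the median gene, differed by -0.62 (limma adjusted p = 0.0638). Mlana differed by -0.07, and Tyr, Dct, Tyrp1 and Pmel by 0.02 to 0.07. The markers and lists were chosen with earlier results of these data known. Figures were drawn with matplotlib 3.10.9.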

Additional observations from a re-analysis of the deposited data

Results flagged for a closer look

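Among the 13 probe sets of the markers, 1 array stood apart by Dixon's criterion for 4 arrays: Twist2 in ND 3, at 9.71, where ND 1, ND 2 and the excluded ND 4 were at 9.86, 9.87 and 9.89. Chance flags about 1 in 20 groups, and 26 groups were examined. Without ND 3 the Twist2 difference was 0.11.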

How the results depend on the processing

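The sign of S100a4, Pdgfra, Thy1, Eng, Twist1 and Twist2 was the same in every alternative, but not the size. In the fit with the 3′ minus 5′ covariate Pdgfra was 0.07 (SE 0.19), Eng -0.04 (SE 0.18) and Twist2 0.004 (SE 0.16). A kept sign says little at such values. S100a4, Thy1 and Twist1 were larger in that fit, at 0.56, 0.21 and 0.23. The count of markers called was 1, and 0 to 1 with 1 array left out. It was 0 with ND 4 included, 0 with the specimen number as a replicate block, 0 with the 3′ minus 5′ covariate and 0 with the keratinocyte covariate (limma), where 2, 2, 1 and 2 markers had an unadjusted p under 0.05 and 6, 1, 0 and 19 of all genes were called. It was 0 without ND 3, HFD 3 or HFD 4, with 1, 3 and 2 markers at an unadjusted p under 0.05, and 1 in each other alternative. All genes called numbered 914, but 485, 11, 210, 6 and 9 without ND 2, ND 3, HFD 2, HFD 3 and HFD 4, 400 with the mean of probe sets, and 1387 of 8548 without dim genes. S100a4 had adjusted p-values from 0.0136 to 0.999 over all of them. The specimen numbers are not said to pair mice, and same-numbered arrays deviated from their group means with r = -0.18, -0.29 and -0.05 over genes, so the numbers were not taken to pair the arrays. The block gave S100a4 0.50 (adjusted p = 0.173) and kept 0 of the 13 calls in the related lists, where eBayes without trend kept 8.

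Markers with differences near 0 changed sign. Pdgfrb ranged from -0.17 to 0.0525 with 1 array left out, Cd34 from -0.01 to 0.0275, Vim from -0.0475 to 0.0475 and Fap from -0.13 to 0.29. Cd34 was -0.0025 with ND 4 included, -0.01 after median centring, -0.0287 with the 3′ minus 5′ covariate and -0.0173 with the keratinocyte covariate. Vim was -0.00619 after quantile normalization, -0.0183 after median centring, -0.00206 with array weights, -0.0342 as the mean of probe sets and -0.00828 with the keratinocyte covariate. Fap was -0.48 with the 3′ minus 5′ covariate and -0.15 with the keratinocyte covariate. The cause was not tested for these changes. Signal over background limits Pdgfra most, and Pdgfra was left out, untested, where dim genes were.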
